A study of Sus scrofa domesticus with 6 samples.

Results

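The integrin, laminin, nidogen and kindlin genes were followed in the mandibular condyle of miniature pig embryos, the part of the lower jaw that meets the skull at the temporomandibular joint. They were taken by gene name from the deposited table, which held 32 of them among 25322 gene rows: 15 integrin alpha chains, 7 integrin beta chains, 5 laminin chains, 2 nidogens and 3 kindlins. Each name had 1 row. Of 43 names known for these families, 11 had no row under their name. A table of gene IDs named rows for 5 of these 11, which are no members and of which some are described apart, and ITGA7, ITGAX, LAMA1, LAMA2, LAMA5 and LAMB4 were not analysed here. Every laminin alpha chain is among the 11.

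Condyles of embryos 85 days old (E85) were compared with condyles of embryos 45 days old (E45), with 3 libraries per age. The labels give every sample the same tissue and the same note on bone formation in cartilage, name no genotype, and do not say whether libraries come from separate or pooled animals. The p-values then cover only the spread among these libraries, which may be technical. The labels call the tissue cartilage and its cells chondrocytes and osteocytes, but the tissue was ground whole, and in such bulk samples a change in the number of cells of a type and a change in RNA per cell cannot be told apart. Total counts per library were 12546729 to 16033822 at E85 and 14221365 to 16559616 at E45. A list of 10 chondrocyte genes summed to 1388, 5302 and 3076 normalised CPM (counts scaled to a common library size) in E85 replicates 1, 2 and 3, against 13220 to 16240 CPM at E45. Of 8 tested osteoblast and osteocyte genes, SOST fell, without E85 replicate 2 the list had 1 called gene in each direction, and it summed to 2956 to 8399 CPM at E85, against 2334 to 5120 CPM at E45. E85 replicate 2 also stood apart for 10 osteoclast genes, which summed to 13534 CPM there and to 1903 and 2329 CPM in replicates 1 and 3. At E45 they summed to 308, 1321 and 391 CPM in replicates 1, 2 and 3, so replicate 2 stood apart there too. For 13 skeletal muscle genes the order was the other way, with 2485 CPM in E85 replicate 2 and 36126 and 29577 CPM in replicates 1 and 3, against 3961 to 8907 CPM at E45. Without that library 9 of 12 tested muscle genes were called higher, and 0 with it, beside 12.3% and 3.9% of all genes. Counts of calls are therefore given with and without this library, and the plot of log2 fold changes shows both estimates for every tested member.

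Integrins are receptors made of an alpha and a beta chain that span the cell membrane, bind matrix proteins or other cells outside, and connect to actin inside. The alpha chain largely sets the ligand: collagen, laminin, proteins with the arginine-glycine-aspartate (RGD) motif such as fibronectin and osteopontin, or receptors on other cells. Kindlins, together with talins, bind the tails of beta chains and switch integrins to their active state. Laminins are trimers of an alpha, a beta and a gamma chain that form the sheet of basement membranes, and nidogens link that sheet to collagen IV. Cartilage cells contact collagen through integrins, while basement membranes surround blood vessels, muscle fibres and nerves rather than mature chondrocytes. Roles given for single genes are those known in human and mouse.

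At E85 the condyle libraries held more RNA of the laminin receptor chains ITGA3 and ITGA6 and of the laminin gamma chain LAMC1 than at E45. These 3 of 31 tested members rose and 0 fell by edgeR's quasi-likelihood test at an adjusted p under 0.05, taken over all 15022 genes tested. That is 9.68% of the tested members, and among all genes 3.9% were called higher and 2.66% lower. With no adjustment, at p under 0.05, 13 members were higher and 2 lower, beside 15.8% and 13.3% of all genes. In 14 tested members the 3 E85 libraries all lay above the 3 E45 libraries, and in 3 (ITGB7, FERMT1 and FERMT2) all lay below, which held for 17.4% and 17.6% of all genes. Estimates in log2 units are edgeR's log2 fold changes, E85 over E45, with ± giving the standard error (SE) beside them. The test itself reports no SE, so it was derived as the absolute log2 fold change over the square root of the test's F statistic. The median log2 fold change was 0.65 over the tested members and 0.02 over all genes, and 23 members had a positive value. ITGAD, a leukocyte alpha chain, was too low to test, with counts of 4, 11 and 1 at E85 and of 0, 3 and 0 at E45.

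The calls rest on few libraries. Without E85 replicate 2, edgeR called 8 members higher and 0 lower, beside 12.3% and 10% of all genes. The 5 added were LAMB2, LAMB3, ITGB2, ITGB3 and ITGAM. Without each of the other libraries in turn, edgeR called 0 members in either direction, beside 0% to 0.611% of all genes higher and 0% to 0.164% lower, and with no adjustment 8 to 14 were higher and 0 to 1 lower, beside 9.79% to 13.5% and 8.66% to 11.6% of all genes. DESeq2, fitted to the 6 libraries, called 11 higher and 1 lower, beside 10.1% and 8.67% of all genes. Its shares, here and below, are over 20411 genes, which include low ones that edgeR's 15022 leave out. The 11 were ITGA1, ITGA3, ITGA6, ITGAM, ITGB2, ITGB4, LAMB1, LAMB2, LAMC1, NID1 and FERMT3, and ITGB7 was the lower one. With library totals alone as the scaling, 2 members were higher and 0 lower, beside 2.91% and 3.98% of all genes, and over the whole table the split was 437 higher and 598 lower instead of 586 and 400.

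**Figure D1:**
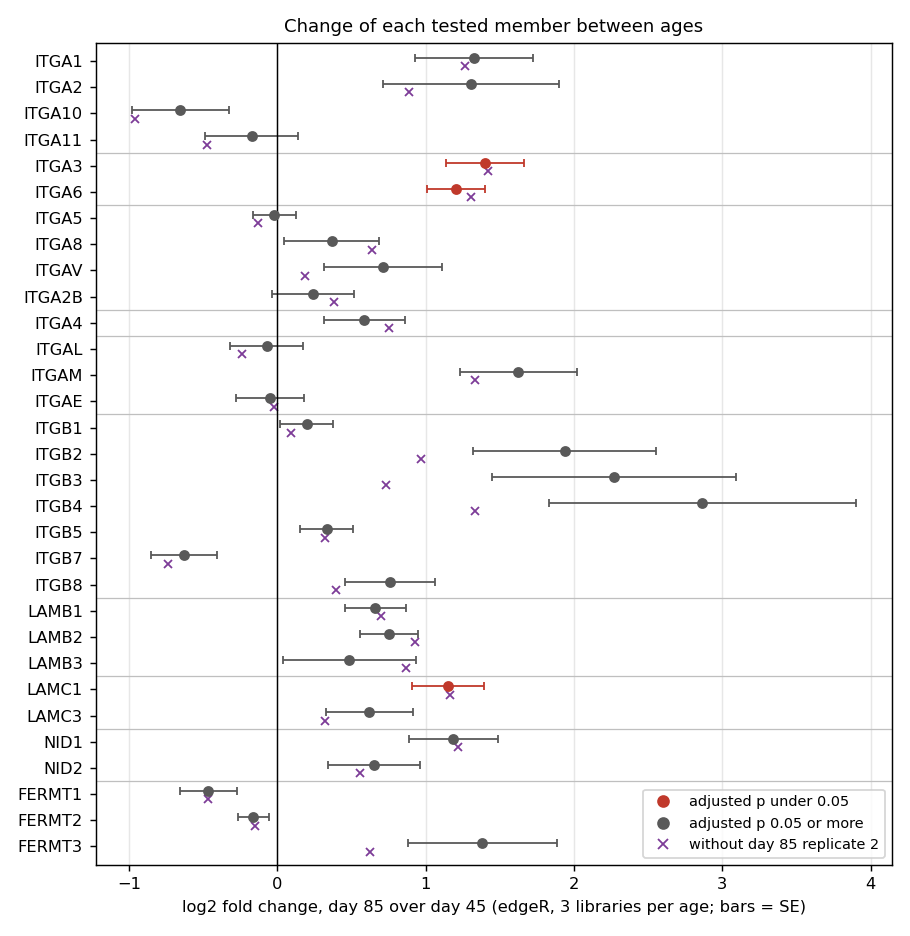
Log2 fold change of each of the 31 tested members, day 85 over day 45. Points give edgeR's estimate from 3 libraries per age, and crosses give the estimate without day 85 replicate 2. Bars give a standard error derived from the F statistic of the test. ITGA3, ITGA6 and LAMC1 are marked as called. The estimates of ITGB2, ITGB3 and ITGB4 moved most towards 0 when that library was left out, and those of ITGA3, ITGA6 and LAMC1 moved little.

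Among the alpha chains that bind laminin, both tested members rose. ITGA6, whose product pairs with beta1 or beta4 on epithelium, endothelium and Schwann cells, had 29.9, 22.1 and 26.2 CPM in the E85 libraries, against 11.3, 9.16 and 13.5 CPM in the E45 libraries. The ages did not overlap, and ITGA6 rose 2.30-fold (log2 fold change 1.20, SE 0.20, adjusted p = 0.0273). ITGA3, whose product with beta1 binds laminins of epithelial and vascular basement membranes, had 13.6, 12.1 and 11.9 CPM at E85, against 5.63, 3.03 and 5.56 CPM at E45. It rose 2.64-fold (log2 fold change 1.40, SE 0.26, adjusted p = 0.0367), again without overlap. Per length both were low: ITGA6 averaged 3.40 ± 0.666 FPKM (fragments scaled by gene length and library total) at E85 and 1.51 ± 0.371 FPKM at E45, and ITGA3 1.43 ± 0.165 and 0.557 ± 0.191 FPKM (SD, n = 3 each). Without E85 replicate 2 the adjusted p was 0.00671 for ITGA6 and 0.0170 for ITGA3, and without each other library it was 0.0576 to 0.139 and 0.0770 to 0.137.

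ITGA6 (ENSSSCG00000015955) lies on chromosome 15 at 87830505 to 87900014 and ITGA3 (ENSSSCG00000017578) on chromosome 12 at 26250190 to 26308837 as the authors' table numbers them. The sources used here do not name the genome build of these coordinates. They are not those of Sscrofa11.1, since rows of the deposited table reach 218632146 on chromosome 13, where the last RefSeq gene of Sscrofa11.1 ends at 208321789.

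The markers of vessel lining were also higher at E85, as were the macrophage markers described below. Of 13 tested endothelial genes 9 rose and 0 fell, led by VWF, MMRN2 and PECAM1 with log2 fold changes of 2.68, 1.94 and 1.66, and the list summed to 1502 to 2183 CPM at E85, against 644 to 882 CPM at E45. The count called higher was 12 without E85 replicate 2 and 0 to 2 without each of the other libraries. Over all genes 3.9% were called higher, and 12.3% without E85 replicate 2. No endothelial marker with a row stood under 1 CPM in every library. Their part in the rise of ITGA3 and ITGA6 was not tested. Of the 12 epithelial markers, 1 of 8 tested, CLDN7, rose (2 higher and 2 lower without E85 replicate 2, 0 without each other library), and the list summed to 19.8 to 49.1 CPM at E85, against 13.7 to 36.3 CPM at E45. The epithelial cadherin CDH1 lay between 0.155 and 2.73 CPM at E85 and between 0 and 0.306 CPM at E45.

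**Figure D2:**
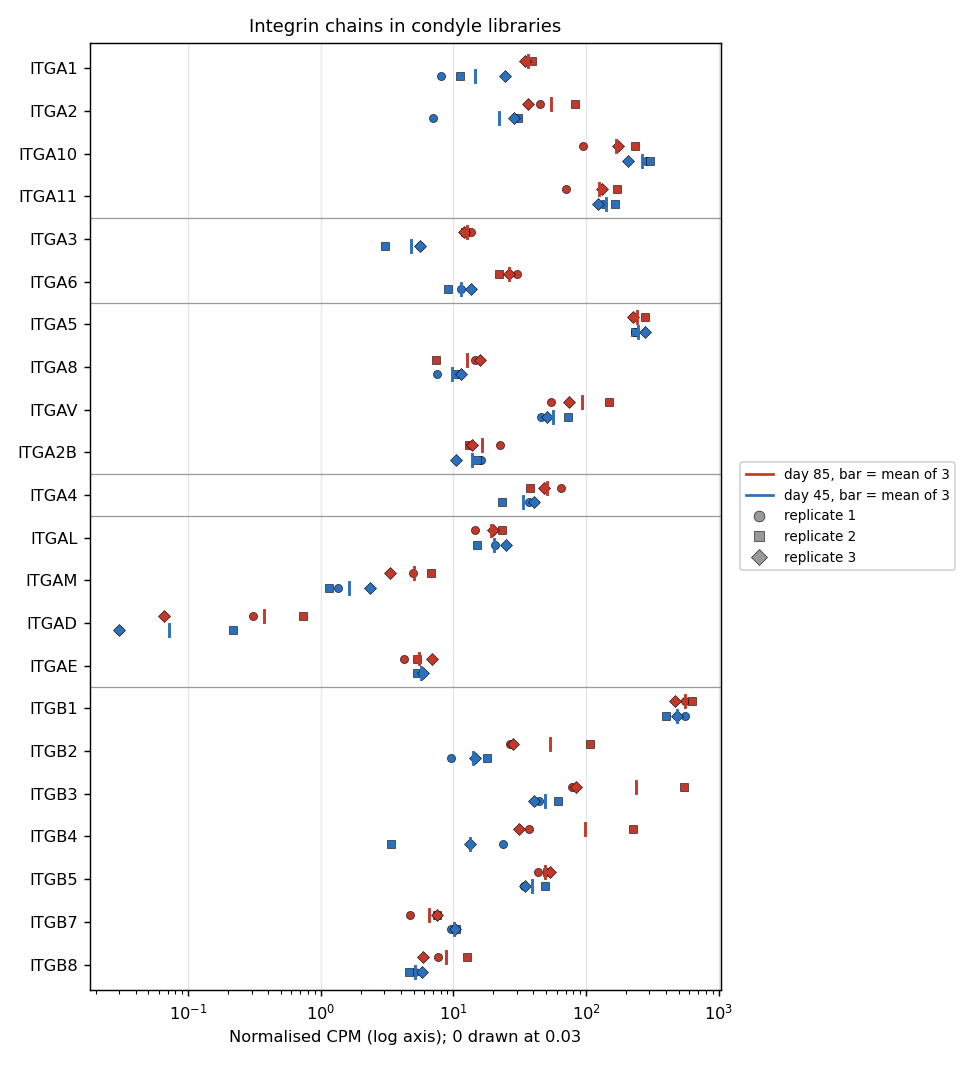
Normalised CPM on a log axis of the 22 integrin chains in each library, with day 85 above day 45 for each gene, 1 symbol per replicate and a bar at the mean of 3 libraries. ITGA3 and ITGA6 separate by age with little spread, whereas ITGB2, ITGB3 and ITGB4 have 1 day 85 library, replicate 2, far to the right of the other 2.

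The alpha chains that bind collagen divided by level and direction, and 0 of 4 passed. ITGA11 and ITGA10 were the abundant ones. ITGA11, the collagen I receptor chain of fibroblasts and osteoblasts, had 71.0, 172 and 131 CPM at E85, against 134, 164 and 123.0 CPM at E45. These overlap, and the estimate was -0.17 log2 units (SE 0.31, adjusted p = 0.747), and -0.47 without E85 replicate 2 (adjusted p = 0.258). ITGA10, the collagen II receptor chain of chondrocytes, had 95.4, 232 and 175 CPM at E85, against 281, 302 and 208 CPM at E45. E85 replicate 2 lay inside the E45 range while replicates 1 and 3 lay below it (log2 fold change -0.65, SE 0.33, adjusted p = 0.237; -0.96 and adjusted p = 0.0634 without replicate 2).

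ITGA1 and ITGA2 were lower per length than these. ITGA1, found on smooth muscle, capillary endothelium and other stromal cells, had 35.4, 39.2 and 34.4 CPM at E85, against 8.02, 11.2 and 24.3 CPM at E45, with an estimate of 1.33 log2 units (SE 0.40, adjusted p = 0.0924). ITGA2, a collagen and laminin receptor chain of epithelium and platelets, had 45.1, 82.0 and 36.6 CPM at E85, against 6.98, 30.7 and 28.7 CPM at E45 (1.31 ± 0.59 log2 units, adjusted p = 0.204; 0.89 and adjusted p = 0.300 without E85 replicate 2). In both the ages did not overlap, neither was called, and DESeq2 called ITGA1 (adjusted p = 0.00204). The 2 genes are neighbours on chromosome 16, 27.4 kb apart. A row for PELO lies inside ITGA1 and had 2427 counts in all, beside 2224 for ITGA1. The libraries were made to keep strand, but the sources used here give no strand setting for the counting, so the level of ITGA1 is uncertain.

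Described as shares of the summed FPKM of these 4 chains, ITGA1 and ITGA2 together took 23.0%, 15.3% and 12.6% in the E85 libraries and 2.47%, 5.46% and 9.49% in the E45 libraries. ITGA10 took 26.2%, 28.9% and 29.7% at E85 and 43.6%, 39.2% and 35.7% at E45. ITGA11 held 50.7% to 57.7% at E85 and 54.0% to 55.3% at E45. The ages separated for the first pair and for ITGA10 and overlapped for ITGA11. Shares of a group depend on each other, so these are not separate results, and in CPM the ages of ITGA10 overlapped. Of 10 tested chondrocyte genes 0 rose and 3 fell, HAPLN1, SOX9 and COL11A1, by 2.79, 1.99 and 1.38 on the log2 scale. Of the 10, 9 were called lower without E85 replicate 2, 0 without each of the other libraries, and 8 by DESeq2. Over all genes 2.66% were called lower, 10% without E85 replicate 2 and 8.67% by DESeq2. The part of fewer chondrocyte transcripts in the ITGA10 values was not tested.

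Among the alpha chains that bind RGD proteins, 0 of 4 passed. ITGA5, the fibronectin receptor chain, was the most abundant of them per length, at 225, 280 and 227 CPM at E85, against 233, 232 and 277 CPM at E45. Its estimate was -0.02 log2 units (SE 0.14, adjusted p = 0.944). FN1, its ligand fibronectin, had 2765, 3472 and 2997 CPM at E85, against 1749, 1802 and 2862 CPM at E45 (0.53 log2 units, adjusted p = 0.194). ITGAV, the chain shared by the vitronectin, osteopontin and latent TGF-beta receptors, had 54.4, 149 and 73.8 CPM at E85, against 45.7, 72.5 and 51.0 CPM at E45. Its estimate was 0.72 log2 units (SE 0.40), and 0.19 without E85 replicate 2 (adjusted p = 0.280 and 0.585).

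ITGA8, a nephronectin receptor chain of mesenchyme and smooth muscle, had 7.40 to 15.9 CPM at E85, against 7.47 to 11.3 CPM at E45. ITGA2B, the alpha chain of the platelet fibrinogen receptor, had 13.0 to 22.6 CPM at E85, against 10.4 to 16.1 CPM at E45. The ages overlapped in both, and neither passed (adjusted p = 0.477 and 0.591). The estimate for ITGA8 was 0.37 log2 units, and 0.64 without E85 replicate 2 (adjusted p = 0.0741). Several other platelet markers were near or at 0: the PF4 row had no counts in any library, and 5 of 10 platelet and megakaryocyte genes, counting PF4, stayed under 1 CPM in every library. The list, which includes ITGA2B, summed to 22.0 to 40.4 CPM at E85, against 17.5 to 23.6 CPM at E45.

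ITGA4, which binds VCAM1 and fibronectin, had 65.1, 37.6 and 48.4 CPM at E85, against 37.0, 23.2 and 40.3 CPM at E45. It did not pass (log2 fold change 0.59, SE 0.27, adjusted p = 0.208). VCAM1 itself had 108 to 135 CPM at E85, against 97.0 to 122.5 CPM at E45, with a log2 fold change of 0.08.

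The leukocyte alpha chains differed among themselves, and 0 of 3 tested passed. ITGAM, the CD11b chain of macrophages, granulocytes and osteoclast precursors, had 4.95, 6.80 and 3.30 CPM at E85, against 1.35, 1.15 and 2.36 CPM at E45. The ages did not overlap, the estimate was 1.62 log2 units (SE 0.39, adjusted p = 0.0571), and without E85 replicate 2 it was 1.33 (adjusted p = 0.0490). ITGAL, the CD11a chain of most leukocytes, had 14.5, 23.3 and 19.7 CPM at E85, against 20.6, 15.1 and 24.8 CPM at E45, with an estimate of -0.07 log2 units (SE 0.25, adjusted p = 0.874). ITGAE, the CD103 chain of mucosal T cells, had 4.25 to 6.86 CPM at E85, against 5.34 to 5.89 CPM at E45. Its row overlaps that of CAMKK1 on chromosome 12, with 496 counts for ITGAE and 745 for CAMKK1, so its level is uncertain. Markers of T and NK cells were low: 4 of 8 stayed under 1 CPM in every library, CD3D among them, and the list summed to 9.89 to 19.2 CPM at E85, against 6.55 to 9.36 CPM at E45. NKG7 and CD247, the pair taken from that list by its CPM, had log2 fold changes of 1.32 and 0.01 and did not pass.

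ITGB1, the beta chain that most alpha chains of mesenchymal cells pair with, was the most abundant beta chain per length, and its ages overlapped. It had 554, 632 and 472 CPM at E85, against 558, 401 and 485 CPM at E45 (0.20 ± 0.18 log2 units, adjusted p = 0.492). The E85 mean of 115 ± 13.9 FPKM and the E45 mean of 103 ± 18.3 FPKM (SD, n = 3 each) put it second in level among the 32 members. ITGB5, which pairs with alpha V and binds vitronectin, had 43.4, 50.4 and 53.8 CPM at E85, against 33.9, 48.7 and 34.5 CPM at E45 (0.34 ± 0.18 log2 units, adjusted p = 0.260). Its FPKM looked high beside ITGB1, at 55.0 ± 5.03 FPKM at E85 and 44.5 ± 8.03 FPKM at E45. The table divides its counts by a small factor: 1 FPKM of ITGB5 equals 0.881 CPM before normalisation, and 1 FPKM of ITGB1 equals 4.74, so the share of ITGB5 among beta chains depends on the gene model used.

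In the beta chains ITGB3, ITGB4 and ITGB2, and in FERMT3, E85 replicate 2 stood far above the other libraries. ITGB3, the partner of alpha V in the osteoclast's vitronectin receptor and of ITGA2B in platelets, had 78.2, 545 and 84.4 CPM in E85 replicates 1, 2 and 3, against 44.4, 61.9 and 40.4 CPM at E45. The ages did not overlap, replicate 2 stood 6.71-fold above the mean of E85 replicates 1 and 3, and the estimate was 2.27 log2 units (SE 0.82, adjusted p = 0.138). Without replicate 2 the log2 fold change was 0.74 and ITGB3 passed (adjusted p = 0.0306).

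ITGB4, the partner of ITGA6 in hemidesmosomes and on Schwann cells and perineurium, had 37.0, 226 and 31.1 CPM at E85, against 23.4, 3.39 and 13.4 CPM at E45. Replicate 2 stood 6.65-fold above the other E85 mean, the estimate was 2.87 log2 units (SE 1.04, adjusted p = 0.138), and without that library it was 1.33 (adjusted p = 0.197). ITGB2, the beta chain shared by the leukocyte integrins, had 26.5, 107 and 28.3 CPM at E85, against 9.61, 18.0 and 14.5 CPM at E45. Its estimate was 1.94 log2 units (SE 0.62, adjusted p = 0.109), and without replicate 2 it was 0.97, which passed (adjusted p = 0.0348). In these 3 genes each E85 library lay above each E45 library.

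Markers of other cell types peaked in the same library. The osteoclast sums, which include MMP9 and CTSK, were 13534 CPM in E85 replicate 2 and at most 2329 CPM in the other E85 libraries. At E45 the osteoclast sum was also highest in replicate 2. So were ITGB2, ITGB3 and FERMT3, whereas ITGB4 was lowest there. Pan-leukocyte genes, 9 with a row, LAPTM5 and LCP1 among them, summed to 168, 428 and 130 CPM at E85, against 61.6, 92.3 and 103 CPM at E45. Schwann cell genes, 9 with a row, summed to 261, 2737 and 251 CPM at E85, against 318, 168 and 210 CPM at E45. ITGB4 was lowest of 6 libraries in E45 replicate 2 and highest in E85 replicate 2. So were the Schwann cell sum and the epithelial sum, the latter at 13.7 and 49.1 CPM. The Schwann cell sum was higher in E45 replicate 1 than in E85 replicates 1 and 3, whereas ITGB4 was lower there. Of these lists, 0 of 10 osteoclast, 0 of 8 tested leukocyte and 0 of 9 Schwann cell genes passed over all libraries, and 9, 6 and 0 were higher at an unadjusted p under 0.05. Over all genes 3.9% were called higher, and 15.8% were higher with no adjustment. Without E85 replicate 2, 2 osteoclast, 3 leukocyte and 0 Schwann cell genes were called higher, and DESeq2 called 7, 5 and 0 over all libraries. The shares of all genes called higher in these fits were 12.3% and 10.1%. Of 11 tested macrophage genes 4 rose, among them MSR1, C1QC and C1QB with log2 fold changes of 2.03, 1.70 and 1.62, and the list summed to 433, 939 and 333 CPM at E85, against 110, 199 and 167 CPM at E45. The number of macrophage genes called higher was 7 without E85 replicate 2 and 0 to 2 without each of the other libraries. The part of these cell types in the values of ITGB2, ITGB3 and ITGB4 was not tested.

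**Figure D3:**
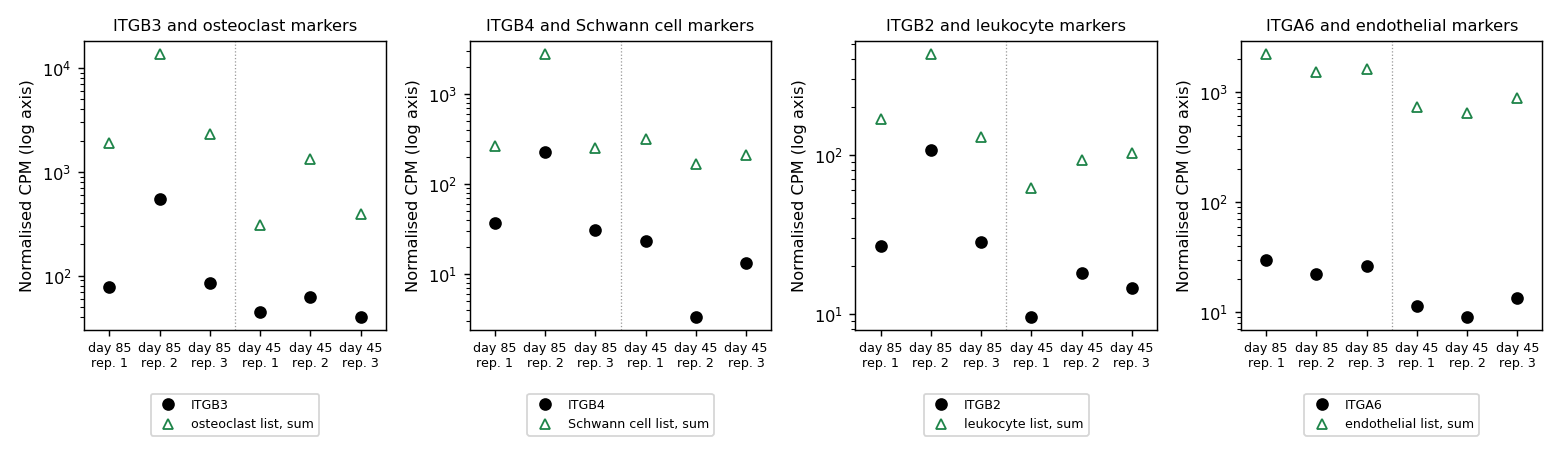
Normalised CPM on a log axis, by library, of ITGB3, ITGB4, ITGB2 and ITGA6 (filled circles), each beside the summed CPM of 1 marker list (open triangles). ITGB3, ITGB4 and ITGB2 and the osteoclast, Schwann cell and leukocyte sums were highest in day 85 replicate 2, whereas ITGA6 and the endothelial sum were higher in the 3 day 85 libraries than in the 3 day 45 libraries.

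Across the members, E85 replicate 2 lay at least 2-fold above the mean of the other 2 E85 libraries in 6 of 31 tested genes and at least 2-fold below it in 2. Over all genes the shares were 6.43% and 7.66%. The 6 were ITGA2, ITGAV, ITGB2, ITGB3, ITGB4 and FERMT3, and the 2 were ITGA8 and LAMB3. The ratio of ITGB3 to ITGAV in FPKM was 1.46, 3.71 and 1.16 in the E85 libraries and 0.988, 0.868 and 0.806 in the E45 libraries.

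The remaining beta chains, ITGB7 and ITGB8, were the lowest per length, at 3.47 and 2.20 FPKM over the 6 libraries. ITGB7, which pairs with ITGA4 or ITGAE on lymphocytes, had 4.72, 7.53 and 7.45 CPM at E85, against 9.61, 10.5 and 10.3 CPM at E45. Every E85 library lay below every E45 library, but ITGB7 did not pass (log2 fold change -0.63, SE 0.22, adjusted p = 0.126), and DESeq2 called it lower (adjusted p = 0.0306). ITGB8, which with alpha V activates latent TGF-beta, had 7.65, 12.6 and 5.93 CPM at E85, against 5.08, 4.62 and 5.76 CPM at E45 (0.76 ± 0.30 log2 units, adjusted p = 0.157; 0.39 and adjusted p = 0.260 without E85 replicate 2), with little room between the ages.

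**Figure D4:**
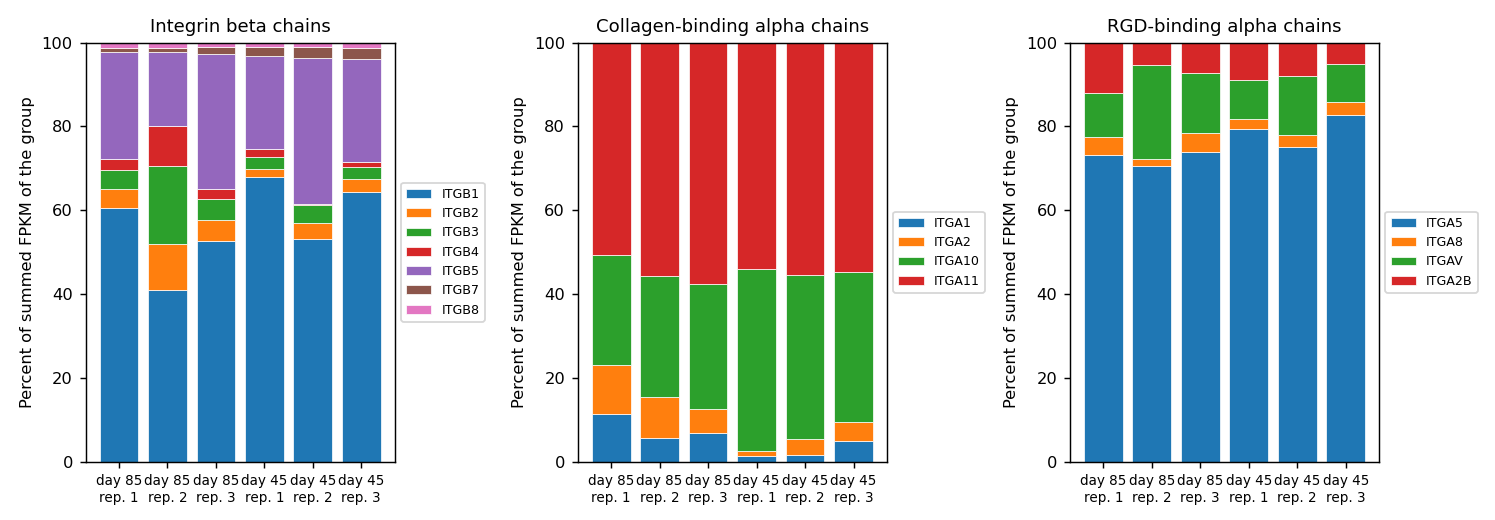
Percent of the summed FPKM of 3 groups of integrin chains, by library: beta chains, collagen-binding alpha chains and RGD-binding alpha chains. ITGB1 held 41.0% to 60.5% of the beta chains at day 85 and 53.2% to 68.0% at day 45, ITGB3 held 18.6% in day 85 replicate 2 and at most 4.97% elsewhere, and ITGA5 held 70.5% to 73.8% of the RGD group at day 85 and 75.0% to 82.8% at day 45.

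The laminin chains and nidogens all had higher fitted levels at E85, and 1 of 7 passed. LAMC1, the gamma chain of most laminin trimers and the one that nidogen binds, had 370, 389 and 439 CPM at E85, against 157, 132 and 250 CPM at E45. The E85 libraries lay close together and above the E45 libraries, of which replicate 3 was the highest. LAMC1 rose 2.22-fold (log2 fold change 1.15, SE 0.24, adjusted p = 0.0440). Without E85 replicate 2 the adjusted p was 0.0315, without each of the other libraries it was 0.0518 to 0.178, and with library totals alone it was 0.0605. LAMC1 (ENSSSCG00000015555) lies on chromosome 9 at 136548464 to 136668804 as the authors' table numbers it.

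LAMB2 and LAMB1 were the most abundant laminin beta chains, and neither passed over all libraries. LAMB2, found in muscle, vessel and nerve basement membranes, had 1117, 732 and 1127 CPM at E85, against 550, 596 and 619 CPM at E45. It was the highest of the 32 members per length, at 200 ± 52.8 FPKM at E85 and 121 ± 12.8 FPKM at E45 (SD, n = 3 each). The estimate was 0.75 log2 units (SE 0.20, adjusted p = 0.0673), and 0.93 without E85 replicate 2, which passed (adjusted p = 0.00747). LAMB1, the beta chain of embryonic basement membranes, had 708, 654 and 712 CPM at E85, against 413, 336 and 562 CPM at E45 (0.66 ± 0.20 log2 units, adjusted p = 0.0940). In both genes the ages did not overlap, and DESeq2 called both (adjusted p = 0.00408 for LAMB2 and 0.0135 for LAMB1).

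The other laminin chains were far lower per length. LAMB3, a beta chain of epithelial laminin, had 17.8, 4.73 and 13.6 CPM at E85, against 7.35, 8.87 and 9.55 CPM at E45. E85 replicate 2 lay below the E45 libraries and replicates 1 and 3 above them (log2 fold change 0.49, SE 0.45, adjusted p = 0.504; 0.87 and adjusted p = 0.0246 without replicate 2). LAMC3, a less widely expressed gamma chain, had 23.8, 48.9 and 33.9 CPM at E85, against 21.6, 18.6 and 29.1 CPM at E45 (log2 fold change 0.62, adjusted p = 0.213; 0.32 and adjusted p = 0.381 without replicate 2).

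**Figure D5:**
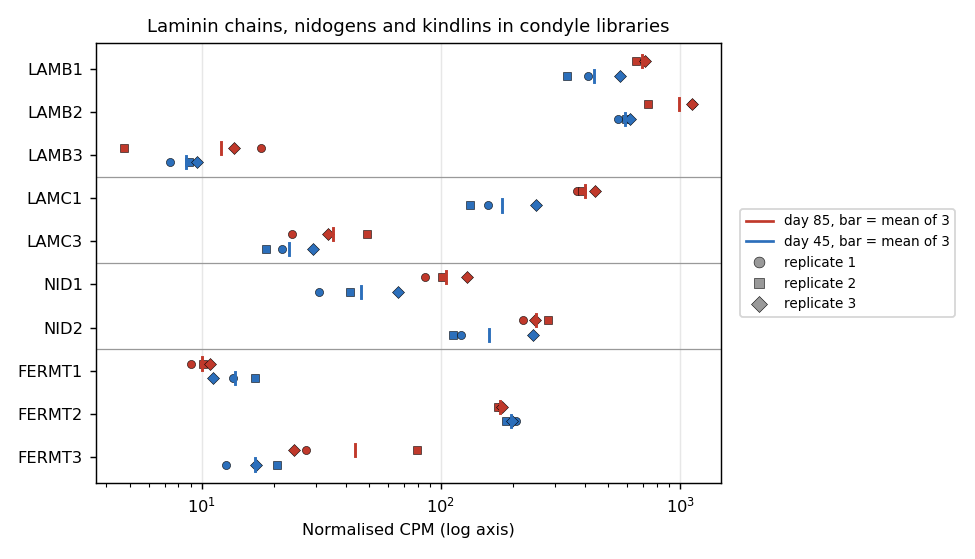
Normalised CPM on a log axis of the laminin chains, nidogens and kindlins in each library, with day 85 above day 45 for each gene, 1 symbol per replicate and a bar at the mean of 3 libraries. LAMB1, LAMB2, LAMC1 and NID1 separate by age, LAMB3 is lowest in day 85 replicate 2, and FERMT2 stays between 173 and 206 CPM in the 6 libraries.

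Rows that the ID table names for laminin chains give some view of the trimers, although these rows were outside the naming rule. LAMA4, the alpha chain of endothelial and mesenchymal basement membranes, had 388, 400 and 359 CPM at E85, against 387, 312 and 443 CPM at E45, with an estimate of 0.01 log2 units (SE 0.16, adjusted p = 0.982). LAMA3 had 58.2, 104 and 131 CPM at E85, against 75.2, 105 and 72.0 CPM at E45 (0.22 log2 units, adjusted p = 0.665).

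The ratio of LAMA4 to LAMC1 differed in range between the ages. LAMA4 FPKM were 1.18, 1.16 and 0.922 times LAMC1 FPKM at E85 and 2.78, 2.66 and 2.00 times at E45, so the ages did not overlap. With log2 fold changes of 0.01 for LAMA4 and 1.15 for LAMC1, this ratio restates the change in LAMC1 and is no separate result. The sum of LAMB1 and LAMB2 was 4.96, 3.53 and 4.21 times LAMC1 at E85 and 6.11, 7.11 and 4.67 times at E45. These overlapped, because E45 replicate 3 lay below E85 replicate 1. FPKM depend on the gene model, so the ratios compare libraries and do not give the number of chains.

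Of the nidogens, NID1 had 86.2, 101 and 129 CPM at E85, against 30.8, 41.7 and 66.3 CPM at E45. The ages did not overlap and the estimate was 1.19 log2 units (SE 0.30), just outside the threshold (adjusted p = 0.0640). A second row 53.5 kb away on chromosome 14, which the ID table also names NID1, had 93.9, 96.9 and 116 CPM at E85, against 48.4, 58.5 and 86.9 CPM at E45 (0.66 log2 units, adjusted p = 0.118). It held 7365 counts in all, beside 6679 for the member row, and a row without a name inside it held 2328. With the 2 NID1 rows summed, edgeR's estimate was 0.91 log2 units (adjusted p = 0.0805). NID2 had 221, 280 and 249 CPM at E85, against 121, 112 and 243 CPM at E45, with E45 replicate 3 inside the E85 range (log2 fold change 0.65, SE 0.31, adjusted p = 0.214).

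In each of the 7 laminin and nidogen members, E45 replicate 3 was the highest of the E45 libraries. The endothelial list was also highest there among the E45 libraries, at 882 CPM against 734 and 644 CPM in replicates 1 and 2. So was the skeletal muscle list, at 8907 CPM against 7752 and 3961 CPM, and so were the mural, leukocyte and T and NK cell lists. The macrophage, osteoclast, platelet, Schwann cell, epithelial, chondrocyte and osteoblast lists were not. In the E85 libraries the endothelial list was highest in replicate 1, at 2183 CPM. There LAMC1, LAMC3, NID1 and NID2 were lowest and LAMB3 was highest, while LAMB1 and LAMB2 were lowest in replicate 2. Mural and smooth muscle genes, 11 with a row, summed to 6391, 1523 and 5912 CPM at E85, against 1597, 1029 and 1984 CPM at E45, and 2 of 11 rose, RGS5 and MCAM, with log2 fold changes of 1.87 and 1.16. Of these 11, 6 were called higher without E85 replicate 2, beside 12.3% of all genes, and 0 without each of the other libraries. The part of these cell types in the laminin and nidogen values was not tested.

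The kindlins divided. FERMT2, the kindlin of mesenchymal cells, had 176, 173 and 180 CPM at E85, against 206, 187 and 198 CPM at E45. Its E85 libraries lay below its E45 libraries, by an estimate of -0.16 log2 units (SE 0.10, adjusted p = 0.346). FERMT1, the kindlin of epithelium, had 9.04, 10.1 and 10.8 CPM at E85, against 13.5, 16.7 and 11.2 CPM at E45 (-0.46 ± 0.19 log2 units, adjusted p = 0.169). FERMT3, the kindlin of blood cells and osteoclasts, had 27.2, 79.4 and 24.3 CPM at E85, against 12.7, 20.7 and 16.9 CPM at E45. It did not pass (log2 fold change 1.38, SE 0.50, adjusted p = 0.137; 0.62 and adjusted p = 0.0774 without E85 replicate 2), and its E85 replicate 2 stood 3.08-fold above the mean of the other 2, as in ITGB2. The FERMT3 row overlaps that of TRPT1 on chromosome 2.

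Genes that work with the members were counted from lists of the same pathway. Over all genes 3.9% were called higher and 2.66% lower, and without E85 replicate 2 the shares were 12.3% and 10%. Of 20 tested basement membrane partners and laminin receptors other than integrins, 5 rose and 1 fell, with a median log2 fold change of 0.83. COL15A1, a collagen of vessel and muscle basement membranes, had 68.0, 48.7 and 65.7 CPM at E85, against 14.4, 12.6 and 25.0 CPM at E45 (1.81 log2 units, adjusted p = 0.0267). NTN4, a netrin that binds laminin, had 23.7, 16.3 and 17.5 CPM at E85, against 5.45, 6.56 and 9.03 CPM at E45 (1.45 log2 units, adjusted p = 0.0291). BCAM, a receptor for the laminin alpha5 chain, had 338, 197 and 258 CPM at E85, against 124, 89.7 and 142 CPM at E45 (1.16 log2 units, adjusted p = 0.0450). The others that rose, perlecan HSPG2 and dystroglycan DAG1, had log2 fold changes of 1.03 and 1.04, and agrin AGRN fell by 0.81 on the log2 scale. These 3 are named because the count is small, after their values were seen. Without E85 replicate 2, 9 rose and 1 fell, and without each of the other libraries 0 passed in either direction.

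Of 31 tested adaptors and focal adhesion genes, 2 rose and 0 fell, with a median log2 fold change of 0.20. That is 6.45% called, near the 6.56% of all genes called in either direction. PTK2B, a focal adhesion kinase relative of blood cells and osteoclasts, had 29.2, 62.8 and 23.4 CPM at E85, against 8.69, 11.04 and 11.4 CPM at E45 (1.89 log2 units, adjusted p = 0.0433). PARVG, the parvin of blood cells, had 8.97, 9.87 and 6.0 CPM at E85, against 2.51, 3.32 and 4.12 CPM at E45 (1.32 log2 units, adjusted p = 0.0451). Without E85 replicate 2, 7 rose and 1 fell, beside 12.3% and 10% of all genes, and without each of the other libraries 0 passed.

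Of 22 tested matrix ligands other than laminins, 2 rose and 0 fell, with a median log2 fold change of -0.24. That is 9.09% called, beside 6.56% of all genes in either direction. VWF, the von Willebrand factor of endothelium and platelets, had 115, 105 and 83.1 CPM at E85, against 15, 10.4 and 21.9 CPM at E45 (2.68 log2 units, adjusted p = 0.0160). ADAM15, a membrane disintegrin that can bind integrins, had 94.6, 107 and 87.2 CPM at E85, against 67.8, 55.4 and 61.4 CPM at E45 (0.64 log2 units, adjusted p = 0.0425). Of 8 tested counter-receptors on cells, ICAM2, which leukocyte integrins bind on endothelium, rose, with 18.5, 22.0 and 14 CPM at E85, against 4.71, 4.26 and 7.0 CPM at E45 (1.77 log2 units, adjusted p = 0.0238). The other 7 did not pass, and the median was 0.58. Leaving out E85 replicate 2, 3 matrix ligands rose and 1 fell, and 3 counter-receptors rose. Without each of the other libraries 0 to 1 ligands and 0 counter-receptors rose.

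The authors' annotation gives KEGG pathways for some members, which is no separate result since the genes were chosen by family. Matrix receptor interaction, focal adhesion and PI3K-Akt signalling were each given for 15 of the 32, and 14 carry no KEGG pathway.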

How the data were processed

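Total RNA of condyle tissue was depleted of ribosomal RNA and sequenced in 6 libraries, 3 per age. The deposited table holds whole-number read counts and FPKM values per gene made by the authors. Reads were aligned with HISAT2 per the submitters' processing notes (no version). For the genome build, annotation, counting tool and strand setting, the sources used here give nothing. The deposited FPKM of each of the 31 members with at least 50 counts were proportional to the count over the library total, within 0.000825%.

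Counts were fitted over the whole table with edgeR 4.0.16 in R 4.3.3 (filterByExpr with a minimum count of 10, TMM scaling, robust quasi-likelihood F test, Benjamini-Hochberg adjustment over 15022 genes, threshold 0.05). Normalised CPM use the TMM library sizes. Levels of members were compared with each other only in FPKM. CPM served to pick genes of other lists by name and to sum lists. Of 25322 rows, 4871 had no count. The fitting was tried on simulated counts with planted changes larger than those of the called members and with no outlying library. That trial cannot tell how well changes of the members' size are found.

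Alternatives were RLE scaling, library totals alone, testing every row, keeping genes at 1 CPM in 3 libraries, the Wald test of DESeq2 1.42.0, limma 3.58.1 (voom, and trend on log2 FPKM plus a pseudocount of 0.1 or 1), summing rows of 1 name, a replicate block, and leaving out each library. Ages were taken from the sample titles. The members and gene lists were chosen with earlier results of these data known, so no list was given a test.

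Named with values were called members, the 2 most abundant members of each role by FPKM, and members whose ages did not overlap at an unadjusted p under 0.05. Of other lists, up to 3 called genes with the largest fold change were named, or the 2 with the highest CPM where none was called. Further genes were named after their values were seen. No sequences are given.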

Additional observations from a re-analysis of the deposited data

How the results depend on the processing

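The members' calls depended on the test and on single libraries. DESeq2 called 11 members higher and 1 lower and, over all genes, 2064 higher and 1770 lower. By limma's trend fit on log2(FPKM + 0.1), 0 members were called higher, beside 2.98% of all genes, and 11 were higher at an unadjusted p under 0.05, beside 12.6%. On log2(FPKM + 1), 2.94% of all genes were called higher and 614 (4.09%) lower. Leaving out single libraries gave 0 to 8 members called higher, and 0 to 1884 genes called higher and 0 to 1528 lower over the whole table. The 8, the 1884 and the 1528 came without E85 replicate 2, and the cause was not tested.

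The correlations of deviations between same-numbered libraries of the 2 ages were 0.03, 0.28 and 0.08. Between differently numbered ones they ran from -0.30 to 0.27. With 3 libraries per age these values cannot decide whether library numbers pair the samples. With a replicate block, 4 members were called higher, NID1 being added (adjusted p = 0.0375), beside 465 of all genes higher (3.1%) and 217 lower (1.44%).

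Fold changes near 0 changed sign when 1 library was left out. The range was -0.13 to 0.067 for ITGA5, -0.24 to 0.10 for ITGAL, -0.47 to 0.086 for ITGA11, -0.076 to 0.38 for ITGA2B and -0.25 to 0.079 for ITGAE on the log2 scale. Of 496 comparisons of a member with its main value over 16 settings, 453 kept direction and side of the threshold, 20 lost the call, 15 gained it and 8 changed sign. Depth limits ITGAD, which had 19 counts over the 6 libraries.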

Other observations

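Rows that the ID table names for other integrin chains add to the picture. ITGB6, the epithelial beta chain that activates latent TGF-beta with alpha V, had 7.88, 0.200 and 9.30 CPM in the E85 libraries, against 0.980, 1.0 and 2.42 CPM in the E45 libraries. E85 replicate 2 held 3 counts, and replicates 1 and 3 lay above the E45 libraries. The estimate was 1.97 log2 units (SE 1.10, edgeR adjusted p = 0.286), and 2.54 without that library (adjusted p = 0.00839). The epithelial laminin chain LAMB3 was also lower in E85 replicate 2 than in the other E85 libraries. The list of epithelial markers went the other way, with 49.1 CPM in E85 replicate 2 and 19.8 and 23.2 CPM in replicates 1 and 3. The ITGB6 row lies inside that of PLA2R1, which had 1689 counts beside 313 for ITGB6.

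ITGA9, a receptor chain for tenascin C and VCAM1, appeared as 2 rows 102 kb apart on chromosome 13. The row named by the ID table had 8.97, 9.67 and 9.82 CPM at E85, against 3.12, 2.45 and 7.65 CPM at E45 (1.10 log2 units, adjusted p = 0.144). The row with integrin alpha 9 as its KEGG orthology had 152, 105 and 123.4 CPM at E85, against 76.6, 74.4 and 116 CPM at E45 (0.51 log2 units, adjusted p = 0.185). Neither passed.

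NID2 and FERMT2 lie 745 kb apart on chromosome 1 in the coordinates of the deposited table, with log2 fold changes of 0.65 and -0.16.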
